A study of Mus musculus with 16 samples.

Results

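The 6 arrays described here measured RNA of transferred CD4 T cells that had spent 60 h either in mice presenting their antigen throughout or in mice presenting none, in both cases with dendritic cells that had not been activated. They were chosen by their titles, which read long dox with PBS for persistent antigen (3 arrays) and no dox with PBS for no antigen (3 arrays), out of 16 arrays in all. The other 10 arrays hold transient antigen with PBS, and all 3 antigen regimes with FGK45.5, which stimulates CD40 on dendritic cells and other cells that carry it. All T cells carried the AND T cell receptor transgenes and the CD90.1 marker, and lymph node cells were transferred into B10.BR mice. Recipients with persistent antigen were Ii-rTA+, TIM+ and received doxycycline from the day before transfer to day 3. Recipients without antigen were Ii-rTA-, TIM+. Both groups received PBS and were 6 to 8 weeks old, and CD4+CD90.1+ cells were flow sorted from them. Subcutaneous lymph nodes are given as the tissue for all but replicate 1 without antigen. The titles of the no-antigen group say that doxycycline was not given, while the treatment note of its replicate 3, the only one of the 3 with such a note, gives the same doxycycline course as for persistent antigen. The design text of the series describes all recipients as carrying both transgenes. Genotype, antigen and, so far as it differed, doxycycline cannot be told apart in this comparison.

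The antigen of the AND receptor is a moth cytochrome c peptide bound to an MHC class II molecule. The Ii-rTA transgene places a doxycycline-dependent activator under the promoter of the invariant chain gene, which is active in cells that express MHC class II, dendritic cells among them and not those alone. TIM is the target construct that carries the peptide. A naive CD4 T cell that meets antigen normally switches on early receptor-signal genes within hours, leaves quiescence, divides, and takes up an effector programme whose kind depends on cytokines and costimulation. Resting dendritic cells offer little costimulation, and antigen seen on them is known for leaving T cells that have divided but respond poorly afterwards.

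The deposited intensities were used as log2(intensity + 1), and every level below is on that scale. The mean intensity per array lay between 88.8 and 118 and the median between 18.2 and 21.1. Each difference is persistent minus no antigen on the same scale, with the standard error of the limma fit after the ± sign. P-values were adjusted over 18193 genes, and a gene with an adjusted p under 0.05 is said to have risen or fallen. Array number and replicate number go together in part: in replicates 1 and 3 the 2 compared arrays come from the same run of consecutive array numbers, and in replicate 2 from different runs. Same-numbered arrays deviated together, with r = 0.697, 0.663 and 0.481 across genes for the 3 pairs of persistent and no antigen. Eif2s3y stood at 8.86 (persistent) and 9.93 (no antigen) in replicate 1, against 2.68 to 3.09 in replicates 2 and 3. Xist stood at 5.71 and 7.16 in replicate 1, against 10.47 to 11.31. By these genes the cells of replicate 1 were mainly male and those of replicates 2 and 3 female. For this reason each count is repeated from a fit in which the replicate number is a block. Whether replicates came from separate animals is not labelled, and the p-values refer only to the spread seen here, whose source may in part be technical.

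The sorted population carried T cell genes in both groups. Summed intensities of 9 T cell marker genes were 8554.6 to 9856.6 with persistent antigen and 8893.2 to 10400.1 without antigen. Of these, Cd4 and Thy1, the gene of CD90, were used in the sort and are no finding. Those of 17 dendritic cell and macrophage markers were 488.8 to 619.8 with persistent antigen and 497.1 to 586.8 without. In each group 10 of the 17 had a mean above the median probe set (4.37), and 0 of the 17 passed in either fit. The MHC class II genes H2-Aa and H2-Eb1 and the macrophage gene Lyz2 lay above it in all 6 arrays. Lyz2 had 6.01, 6.92 and 5.24 with persistent antigen and 5.73, 6.78 and 5.16 without. The sums of 9 CD8 T and NK cell markers were 248.6 to 364.1 with persistent antigen and 257 to 342.2 without. B cell markers summed to 378.8 to 511.7 with persistent antigen and 308.7 to 379.1 without, and 1 of the 10, Cd22, rose. Its levels were 7.81, 7.87 and 8.32 with persistent antigen and 6.41, 6.83 and 6.45 without. The other 9 did not pass without a block. The defining B cell genes Cd79a, Cd79b, Pax5 and Ebf1 lay below the median probe set (4.37) in all 6 arrays. Ms4a1 (CD20) lay above it in all 6, at 5.05, 6.92 and 5.76 with persistent antigen and 6.23, 6.31 and 6.10 without, and so did Blk, at 4.99, 5.60 and 5.23 with persistent antigen and 5.30, 6.11 and 5.73 without. The part of other cells in the results below was not tested further. In sorted bulk samples, fewer cells expressing a gene and less of its RNA per cell cannot be told apart.

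With persistent antigen 649 of 18193 genes differed from no antigen (3.57%), of which 401 rose (2.2%) and 248 fell (1.36%). All 401 were higher and all 248 lower within each of the 3 replicate numbers. The genes were called on these same arrays, which favours such agreement, so it is no separate evidence. Of all 18193 genes 3727 were higher and 4463 lower within each replicate number. Of the genes that rose, 351 did so at least 2-fold, 134 at least 4-fold and 35 at least 8-fold. Of those that fell, 186 did so at least 2-fold, 37 at least 4-fold and 9 at least 8-fold. With the replicate block 3042 genes passed (16.7%), 1807 of them higher (9.93%) and 1235 lower (6.79%), and these held all 649. List counts below are to be read beside these shares: 2.2% higher and 1.36% lower without a block, 9.93% and 6.79% with it. A list count near them is no finding about the list. In limma without a block 2370 of the 18193 genes had an unadjusted p under 0.05. List counts at an unadjusted p are to be read beside that number. With the run of array numbers as the block 2833 genes passed. The arrays of the 2 groups did not overlap for 1529 genes higher (8.4%) and 1753 lower (9.64%). The median difference over all genes was −0.03, a value that the authors' normalization may itself have set near 0. With cyclic loess scaling 958 genes passed. The count of 649 fell to 306 without persistent replicate 1, to 389 without persistent replicate 3 and to between 423 and 456 without a no-antigen replicate. Below, P1 to P3 stand for the persistent antigen arrays of replicates 1 to 3 and N1 to N3 for the no-antigen arrays. They are given where leaving out 1 of them ended a call or moved a count by more than 1.5 times. The same holds for a list median of at least 0.3 in size. All these fits were without a block, so calls lost in them are not calls lost with the replicate block. For 123 of the 649 genes the lower of the 2 group means was under the median probe set, and folds of such dim genes are uncertain.

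**Figure D1:**
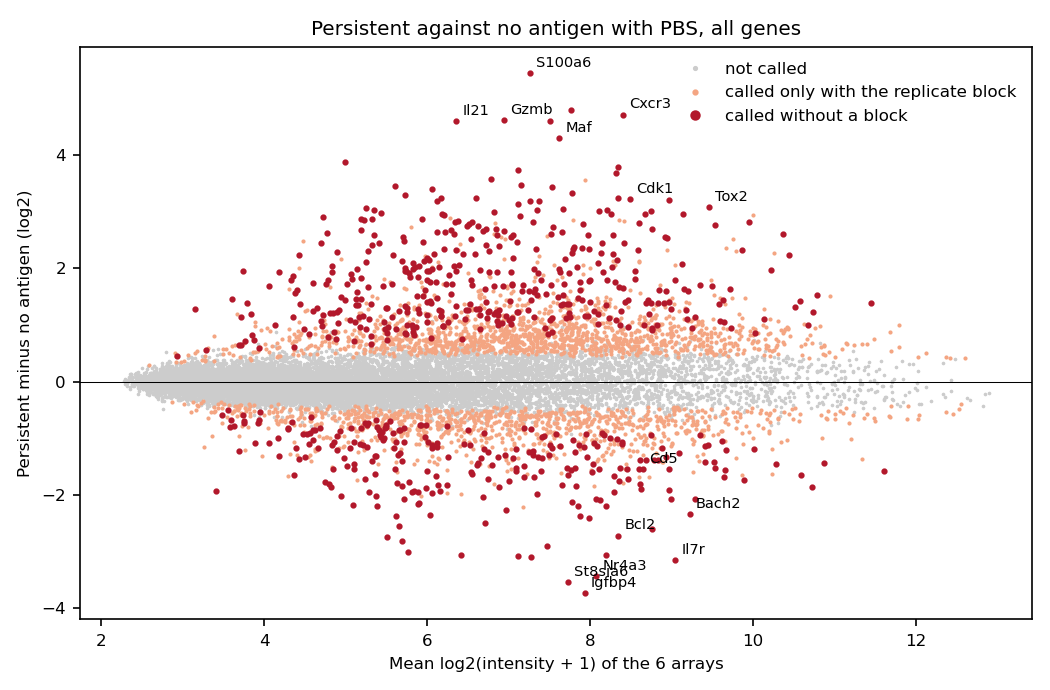
Difference between persistent and no antigen (log2, y axis) against the mean log2(intensity + 1) of the 6 arrays (x axis) for all 18193 genes. Dark points are the 649 genes called without a block, light points those called only with the replicate block, and grey points the rest; increases reach 5.45 and decreases −3.73.

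The largest increase of all was that of S100a6, by 5.45 ± 0.70 (adjusted p = 0.000749). S100a6, a small calcium-binding protein, stood at 9.53, 10.88 and 9.57 in the persistent antigen arrays and 3.80, 3.73 and 6.10 in the no-antigen arrays. The groups lay apart, with no-antigen replicate 3 the highest of its group. Anxa2, a membrane-binding annexin that pairs with S100a10, stood at 10.51, 10.06 and 9.93 with persistent antigen and 5.11, 5.07 and 5.91 without, an increase of 27.9-fold. Plac8 had 9.59, 9.83 and 10.01 with persistent antigen, against 5.19, 4.69 and 5.73 without antigen. The arrays of each group agreed within about 1 log2 unit for both genes, and the groups lay more than 3 units apart. Nkg7, a membrane protein of cytotoxic granules, had 10.18, 10.32 and 10.21 with persistent antigen and 6.44, 5.45 and 7.44 without antigen. Emp1, an epithelial membrane protein, had 7.47, 5.94 and 7.39 with persistent antigen, while its 2.46, 3.30 and 3.40 without antigen lay below the median probe set. The other probe set of Emp1 had a difference of opposite sign, which did not pass in either fit. Alcam, the adhesion ligand of CD6, had 8.63, 8.31 and 8.80 with persistent antigen and 5.65, 4.13 and 5.23 without, and rose by 3.58 ± 0.44 (adjusted p = 0.000686).

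**Figure D2:**
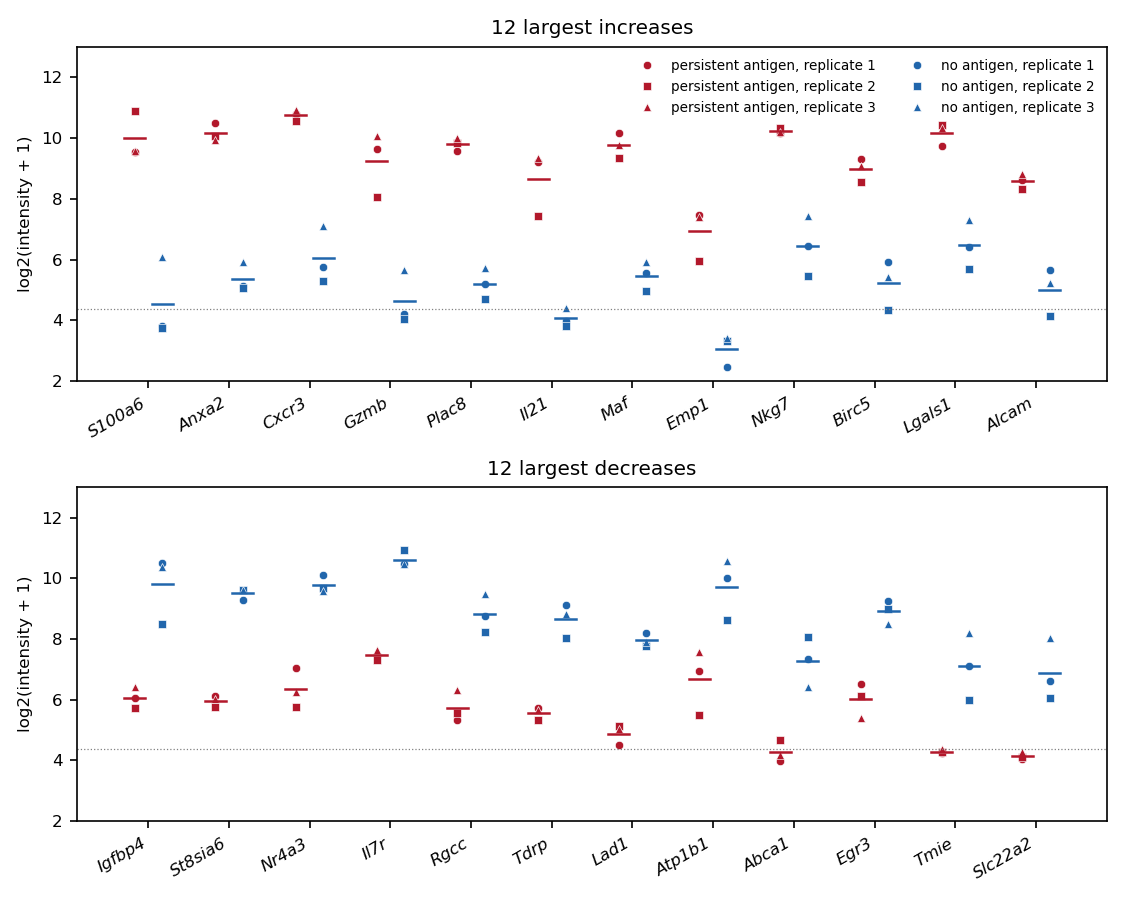
Log2(intensity + 1) in each array for the 12 largest increases (top) and the 12 largest decreases (bottom) among genes that passed without overlap. Persistent antigen arrays are on the left of each gene and no-antigen arrays on the right, symbols mark the replicate number, short lines are group means and the dotted line is the median probe set (4.37). The 6 arrays separate by antigen for all 24 genes, as the choice of genes required.

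The largest decreases included a cytokine receptor, a transporter, a secreted protein and a sialyltransferase. Il7r, the receptor chain through which resting T cells receive IL-7 survival signals, stood at 7.47, 7.29 and 7.65 with persistent antigen and 10.46, 10.93 and 10.46 without. St8sia6, a sialyltransferase, had 6.12, 5.74 and 6.02 with persistent antigen, against 9.29, 9.62 and 9.60 without antigen. Both groups of arrays were tight for these 2 genes and lay over 2 units apart. Igfbp4, a secreted binding protein of insulin-like growth factors, had 6.07, 5.71 and 6.43 with persistent antigen and 10.52, 8.50 and 10.38 without, with no-antigen replicate 2 about 2 units under the others of its group. Abca1, a cholesterol exporter, had 3.97, 4.66 and 4.17 with persistent antigen and 7.33, 8.07 and 6.42 without, and fell by 3.003 ± 0.43 (adjusted p = 0.00131). Atp1b1, a subunit of the sodium pump, had 6.94, 5.51 and 7.57 with persistent antigen and 10.002, 8.62 and 10.56 without. Its replicate 2 arrays were lowest in both groups, and it fell in each replicate number. Atp1b1 lost its call without P1, P2, N1 or N3 (adjusted p up to 0.128). Among its other probe sets 1 had a difference of opposite sign, which did not pass in either fit.

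Several genes of the first hours after receptor engagement were lower with persistent antigen. Of 25 measured early receptor-signal genes 6 fell and 0 rose, where 1.36% of all genes fell, and with the replicate block 14 fell and 1 rose. The median of the 25 differences was −0.63, against −0.03 over all genes. Nr4a3, an orphan nuclear receptor induced by receptor signalling, stood at 7.05, 5.77 and 6.24 with persistent antigen and 10.11, 9.69 and 9.58 without. Its relative Nr4a1 (Nur77) had 7.06, 6.79 and 6.87 with persistent antigen and 8.79, 7.95 and 8.90 without, and fell by 1.64 ± 0.29 (adjusted p = 0.00489). No persistent antigen array reached the lowest no-antigen array for either gene. Egr3, a zinc finger factor of the NFAT response, had 6.53, 6.12 and 5.40 with persistent antigen and 9.25, 8.998 and 8.50 without. Cd69, which holds activated T cells in the lymph node, had 7.32, 6.67 and 7.14 with persistent antigen and 9.21, 9.31 and 8.81 without. Rgcc had 5.33, 5.55 and 6.32 with persistent antigen and 8.75, 8.22 and 9.50 without, and the sixth gene that fell was Tnfaip3, an inhibitor of NF-kappaB signalling. Tnfaip3 lost its call without any 1 of the 6 arrays (adjusted p up to 0.109). Egr1 passed only with the block (adjusted p = 0.000177, and 0.329 without), with 10.92, 10.04 and 11.13 in persistent antigen arrays and 12.02, 11.20 and 11.92 in no-antigen arrays. Egr2 passed in neither fit, at 8.86, 8.36 and 8.91 with persistent antigen and 9.39, 8.67 and 9.45 without. Klf2, a quiescence factor kept in this list, ran the other way and passed only with the block, with 7.26, 7.74 and 6.53 with persistent antigen and 5.99, 6.24 and 6.23 without and a difference of 1.02 ± 0.21 (adjusted p = 0.00155). Higher early receptor-signal genes numbered 1 without P3.

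Most genes of the T cell receptor complex and its proximal signalling did not pass. Of 31 measured members 3 fell and 0 rose, and with the replicate block 10 fell and 1 rose, with a median of −0.27. Cd5, an inhibitory receptor whose surface level follows receptor signalling, had 7.81, 7.99 and 7.86 with persistent antigen and 9.22, 9.79 and 9.27 without, and fell by 1.54 ± 0.28 (adjusted p = 0.00691). Rasgrp1, the exchange factor that opens the RAS pathway, had 9.68, 9.35 and 9.65 with persistent antigen and 10.99, 10.98 and 11.05 without, and fell by 1.45 ± 0.26 (adjusted p = 0.00655). Ubash3a, a phosphatase-like suppressor of receptor signalling, had 6.85, 6.33 and 6.23 with persistent antigen and 8.47, 7.67 and 8.31 without. Ubash3a lost its call without P2, P3, N1 or N3 (adjusted p up to 0.108). The signalling chain gene Cd3g and the diacylglycerol kinase genes Dgka and Dgkz were lower only with the block. Their differences were −0.58 ± 0.18, −0.54 ± 0.16 and −0.78 ± 0.18 (adjusted p = 0.0312, 0.0242 and 0.00497). Cd3e differed by −0.06 ± 0.40, the kinase gene Zap70 by 0.01 ± 0.23 and the costimulatory receptor gene Cd28 by 0.11 ± 0.34, and these passed in neither fit.

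Of 21 measured RGS, DUSP and Sprouty family genes 1 rose and 0 fell, and with the replicate block 1 rose and 6 fell, with a median of −0.29. The one that rose was Rgs1, a brake on chemokine receptor signalling, with 6.70, 6.38 and 6.46 in persistent antigen arrays and 5.68, 5.29 and 4.91 in no-antigen arrays (difference 1.22 ± 0.22, adjusted p = 0.0066). Rgs2 had 5.80, 6.16 and 6.24 with persistent antigen and 7.63, 9.69 and 7.54 without, where replicate 2 stood 2 units above the others of its group. It fell only with the block, by 2.22 ± 0.51 (adjusted p = 0.00406, and 0.135 without). The ERK phosphatase gene Dusp6 fell with the block by 0.79 ± 0.20 (adjusted p = 0.00701).

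Among costimulatory receptors and TNF family genes, ligands included, 4 of 19 measured genes fell and 0 rose. With the replicate block 6 fell and 3 rose, and the median was −0.05. Tnfrsf9, which encodes 4-1BB, had 6.14, 6.50 and 6.29 with persistent antigen and 8.02, 7.65 and 7.99 without. Cd72, a receptor best known from B cells, had 4.32, 4.55 and 4.19 with persistent antigen and 6.62, 6.49 and 6.03 without, and Cd86, a B7 ligand that T cells can carry, had 5.03, 4.83 and 4.65 with persistent antigen and 6.88, 7.08 and 6.39 without. These 3 genes fell by 1.58 ± 0.23, 2.02 ± 0.21 and 1.94 ± 0.30 (adjusted p = 0.00169, 0.000231 and 0.00221), and in each the 2 groups lay apart. The fourth was Tnfsf4, the ligand of OX40, by 0.76 ± 0.19. Tnfsf4 lost its call without P1, P2, P3, N2 or N3 (adjusted p up to 0.152). Icos, the costimulatory receptor of follicular helper cells, had 12.71, 11.69 and 12.46 with persistent antigen and 11.74, 10.22 and 11.93 without, and rose only with the block, by 0.99 ± 0.20 (adjusted p = 0.00142).

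Of 20 measured genes of the IL-2 and common gamma chain receptors and their signalling 1 rose and 2 fell, and with the replicate block 2 rose and 5 fell, with a median of −0.17. Il2rb, the signalling chain shared by the IL-2 and IL-15 receptors, had 7.93, 7.20 and 7.43 with persistent antigen and 6.15, 5.31 and 6.21 without, and rose by 1.63 ± 0.34 (adjusted p = 0.0135). Il2rb lost its call without P1 or N2 (adjusted p up to 0.0832). Il7r fell by 3.14 ± 0.37 (adjusted p = 0.000505). Il6st, the gp130 chain of the IL-6 receptor family, had 8.17, 7.66 and 8.06 with persistent antigen and 10.45, 9.47 and 10.16 without, and fell by 2.06 ± 0.38 (adjusted p = 0.00699). Neither Il2 nor Il2ra, the high-affinity chain CD25, passed in either fit. Il2 lay at 4.27, 4.32 and 4.51 with persistent antigen and 4.72, 4.30 and 4.20 without, and Il2ra at 5.23, 4.98 and 4.79 with persistent antigen and 4.91, 5.30 and 5.01 without. Higher genes of this list numbered 0 without P1 or N2.

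Genes of the TGF-beta pathway fell more often than they rose. Of 17 measured members 7 fell and 1 rose, 8 and 1 with the replicate block, and the median was −0.62. The receptor gene Tgfbr2 had 9.04, 8.69 and 8.70 with persistent antigen and 10.20, 10.30 and 10.20 without, and fell by 1.42 ± 0.23 (adjusted p = 0.00303). The co-receptor gene Tgfbr3 had 8.18, 7.77 and 8.03 with persistent antigen and 9.26, 9.47 and 9.41 without. For both receptors the arrays of each group lay within 0.5 units. The inhibitors also fell, Smurf2, a ubiquitin ligase for SMADs, by 1.53 ± 0.21 (adjusted p = 0.00114) and the inhibitory Smad7 by 1.24 ± 0.29 (adjusted p = 0.0296). Skil, a SKI family corepressor of SMADs, had 9.15, 8.61 and 9.33 with persistent antigen and 10.66, 11.35 and 10.28 without. Ski and Tgif1, corepressors of the same pathway, complete the 7. The 1 that rose was the ligand gene Tgfb3, with 6.14, 5.99 and 5.85 in persistent antigen arrays and 4.17, 4.89 and 4.83 in no-antigen arrays.  Smad7 lost its call without P1, P2, P3, N1 or N3 (adjusted p up to 0.138), Ski and Tgif1 without P1, P2, P3, N1 or N2 (adjusted p up to 0.182) and Tgfb3 without P1 or N1 (adjusted p up to 0.0614). Higher TGF-beta pathway genes numbered 0 without P1 or N1. Lower TGF-beta pathway genes numbered 4 without P1, P2, P3 or N1.

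Among 33 transcription factors of effector T cells 4 rose and 3 fell, and with the replicate block 10 rose and 10 fell, with a median of −0.20. Prdm1, which encodes the terminal differentiation factor Blimp-1, had 7.65, 6.26 and 7.04 with persistent antigen and 4.004, 4.34 and 4.95 without, and rose by 2.55 ± 0.46 (adjusted p = 0.00653). It is also a plasma cell marker. The other 5 plasma cell markers, Jchain, Sdc1, Tnfrsf17, Mzb1 and Derl3, did not pass in either fit and differed by −0.31 to −0.02. Bach2, a repressor of effector genes in resting lymphocytes, had 7.78, 8.13 and 8.26 with persistent antigen and 10.42, 10.43 and 10.33 without, and fell by 2.34 ± 0.22 (adjusted p = 0.000189). Foxp1, a quiescence factor, had 8.62, 8.65 and 9.35 with persistent antigen and 10.44, 10.11 and 10.76 without. Satb1, a chromatin organiser of developing T cells, fell by 1.19 ± 0.21 (adjusted p = 0.0052). Irf8 rose by 1.30 ± 0.33 and Ikzf3, an Ikaros family member, by 0.92 ± 0.22. Irf4 and Batf, factors that act together in activated T cells, rose only with the block, by 1.32 ± 0.22 and 0.54 ± 0.16 (adjusted p = 0.000203 and 0.0272). Irf4 had 9.89, 7.76 and 9.23 with persistent antigen and 8.58, 6.34 and 8.003 without, with replicate 2 lowest in both groups. Id2 fell with the block by 1.18 ± 0.23 (adjusted p = 0.00113), while Id3 and Zeb2 passed in neither fit. Foxp1 lost its call without P1 (adjusted p = 0.0552), Irf8 without P1, P2, P3, N2 or N3 (adjusted p up to 0.199) and Ikzf3 without P1, P2, P3, N1 or N2 (adjusted p up to 0.125). Higher factors numbered 1 without P1 or N2 and 2 without P2, P3 or N3.

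The follicular helper list had 5 of 17 measured genes higher and 1 lower, 8 and 2 with the replicate block, and a median of 0.16. Il21, the cytokine of these cells, had 9.20, 7.44 and 9.34 with persistent antigen, against 3.98, 3.82 and 4.39 without antigen, near or below the median probe set. Maf, a factor that drives Il21, had 10.17, 9.36 and 9.77 with persistent antigen and 5.55, 4.95 and 5.91 without. Tox2 had 10.89, 10.60 and 11.52 with persistent antigen and 7.88, 7.25 and 8.65 without. Replicate 2 was the lowest of both groups for these 3 genes, and the difference held within each replicate number. Cxcr5, the receptor that leads cells to the follicle, had 5.50, 5.89 and 5.69 with persistent antigen and 4.12, 4.09 and 4.38 without, and 2 of its 3 no-antigen arrays lay below the median probe set. Sh2d1a, the adaptor SAP needed for help to B cells, rose by 1.37 ± 0.32. Lef1, a factor known to act upstream of Bcl6, fell by 0.90 ± 0.23. Sh2d1a lost its call without P1, P3, N1, N2 or N3 (adjusted p up to 0.144) and Lef1 without any 1 of the 6 arrays (adjusted p up to 0.179). Bcl6, the factor that defines the lineage, passed in neither fit at 6.86, 6.93 and 7.11 with persistent antigen and 7.47, 7.19 and 7.51 without. Pdcd1, the gene of PD-1, lay at 6.20, 6.04 and 6.27 with persistent antigen and 6.13, 6.25 and 6.14 without, and Cd40lg at 4.70, 4.97 and 4.75 with persistent antigen and 4.39, 5.05 and 4.82 without, and neither passed in either fit. Lower follicular helper genes numbered 0 without P1, P2, P3, N1 or N2.

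Th1 genes had 4 of 15 measured members higher and 2 lower, 6 and 3 with the replicate block, with a median of 0.09. Cxcr3, the chemokine receptor of Th1 cells, stood at 10.80, 10.57 and 10.92 in persistent antigen arrays and 5.76, 5.28 and 7.09 in no-antigen arrays. Tbx21, which encodes the lineage factor T-bet, had 7.71, 6.34 and 8.07 with persistent antigen and 3.65, 3.83 and 4.77 without, and rose by 3.29 ± 0.66 (adjusted p = 0.0117). Stat4, the transducer of IL-12, had 9.17, 8.44 and 9.09 with persistent antigen and 7.57, 6.85 and 6.87 without. The fourth, Il12rb1, is a chain of the IL-12 receptor, while its partner Il12rb2 did not pass in either fit, at 3.43, 4.68 and 4.22 with persistent antigen and 3.79, 4.32 and 3.94 without. Ifng, the main cytokine of this lineage, had 8.72, 6.02 and 8.91 with persistent antigen and 5.37, 3.82 and 6.13 without. The groups overlapped for Ifng, since persistent replicate 2 lay below no-antigen replicate 3, and it rose only with the block, by 2.77 ± 0.39 (adjusted p = 3.15e-05, and 0.257 without). Ifngr2, a chain of its receptor, fell by 1.03 ± 0.19 (adjusted p = 0.00694), and the cytokine gene Lta by 1.17 ± 0.20 (adjusted p = 0.00479).  Il12rb1 lost its call without any 1 of the 6 arrays (adjusted p up to 0.181), Tbx21 without P1, P3, N1 or N2 (adjusted p up to 0.0635) and Stat4 without P1, P3, N2 or N3 (adjusted p up to 0.107). Higher Th1 genes numbered 1 without P1 or P3 and 2 without N1, N2 or N3.

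Cytotoxic granule genes were higher in part. Of 19 measured members 4 rose and 0 fell, 9 and 0 with the replicate block, and the median was 0.63. Gzmb, a granule protease, had 9.64, 8.05 and 10.07 with persistent antigen and 4.19, 4.04 and 5.67 without. Gzmk, another protease, had 7.58, 6.13 and 7.06 with persistent antigen and 4.70, 5.14 and 4.80 without, and rose by 2.04 ± 0.32 (adjusted p = 0.00215). Serpinb6b, an intracellular protease inhibitor, had 8.61, 8.30 and 8.61 with persistent antigen and 6.23, 6.45 and 5.83 without, and Nkg7 was the fourth. Each of the 4 passed in every fit that left out 1 array. Gzma had 6.75, 6.22 and 9.65 with persistent antigen and 5.23, 4.46 and 5.95 without, with replicate 3 highest in both groups, and rose only with the block by 2.33 ± 0.32 (adjusted p = 3.03e-05). Prf1, which encodes the pore-forming perforin, lay below the median probe set in all 6 arrays at 4.34, 4.24 and 4.02 with persistent antigen and 4.34, 3.61 and 4.34 without. The 9 CD8 T and NK cell markers held no member that passed in either fit, and their summed levels are given above.

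Of 15 measured Th2, Th17 and regulatory T cell genes 0 passed in limma without a block (4 at an unadjusted p under 0.05), and with the replicate block 2 rose and 2 fell, with a median of −0.07. Foxp3 lay at 3.26, 3.62 and 3.18 with persistent antigen and 3.61, 4.39 and 3.90 without, mostly below the median probe set, and fell with the block by 0.61 ± 0.14 (adjusted p = 0.00379). Il10 had 4.66, 4.65 and 4.17 with persistent antigen and 3.53, 4.35 and 3.56 without, and rose with the block by 0.68 ± 0.17 (adjusted p = 0.00917). Gata3, the Th2 factor, passed in neither fit at 6.37, 5.21 and 5.70 with persistent antigen and 5.33, 4.87 and 5.51 without. Of 18 secreted chemokines and cytokines 0 passed in limma without a block (1 at an unadjusted p under 0.05), and 2 rose and 2 fell with it. Over all genes 9.93% rose and 6.79% fell with the block, so these counts are near the common share. Ccl3, Csf2 and Xcl1 lay below the median probe set in every one of the 6 arrays, and Ccl5 differed by 0.02 ± 0.43. Higher genes of the first list numbered 1 without N2.

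Inhibitory receptors and genes linked to anergy were mixed. Of 12 measured inhibitory receptors 2 rose and 0 fell, 4 and 1 with the replicate block, and the median was 0.09. Lair1, a collagen receptor, had 5.70, 5.88 and 5.56 with persistent antigen and 4.10, 4.62 and 4.10 without, and rose by 1.44 ± 0.23 (adjusted p = 0.00238). Havcr2, which encodes TIM-3, had 5.82, 3.98 and 4.90 with persistent antigen and 3.18, 3.13 and 3.34 without, with persistent replicate 2 below the median probe set. Ctla4 rose only with the block, by 1.84 ± 0.21 (adjusted p = 2.61e-06, and 0.0959 without), at 8.24, 7.30 and 7.55 with persistent antigen and 6.68, 5.15 and 5.73 without. Lag3 also rose only with the block, by 0.81 ± 0.21 (adjusted p = 0.00991), and Cd274, the ligand PD-L1, fell with it by 1.17 ± 0.15 (adjusted p = 1.49e-05). Of 18 anergy and NFAT genes 1 rose and 1 fell, 2 and 5 with the replicate block, with a median of −0.01. Nrp1, a surface protein carried by thymic regulatory and some activated T cells, had 9.16, 8.89 and 8.90 with persistent antigen and 6.57, 5.27 and 7.18 without, and rose by 2.64 ± 0.51 (adjusted p = 0.00879). The ubiquitin ligase genes of anergy passed in neither fit, Cblb with a difference of 0.28 ± 0.28 and Rnf128 (GRAIL) with 0.11 ± 0.20. Nt5e, the gene of CD73, and Izumo1r, the gene of FR4, mark anergic CD4 cells, and with the block the first rose by 1.08 ± 0.18 (adjusted p = 0.000283) and the second fell by 0.63 ± 0.17 (adjusted p = 0.0153). Havcr2 lost its call without P1, P3, N1 or N2 (adjusted p up to 0.0647). Higher inhibitory receptors numbered 1 without P1, P3, N1 or N2.

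Annexins, S100 proteins and related genes rose in large part. Of 18 measured members 11 rose and 0 fell, 15 and 0 with the replicate block, and the median was 1.53. S100a4 had 6.51, 7.43 and 8.17 with persistent antigen and 4.01, 4.87 and 4.60 without. S100a10, the partner of annexin A2, had 11.04, 11.77 and 10.81 with persistent antigen and 9.19, 9.62 and 8.88 without. Vim, the intermediate filament vimentin, had 10.25, 10.19 and 10.16 with persistent antigen and 8.12, 9.09 and 8.30 without. These were already bright without antigen in the case of S100a10 and Vim and near the median probe set in the case of S100a4. The galectins rose by 3.69 ± 0.44 (Lgals1, adjusted p = 0.000548) and 2.98 ± 0.31 (Lgals3, adjusted p = 0.00024). Lgals3 had 6.74, 7.22 and 6.81 with persistent antigen and 3.58, 4.13 and 4.11 without, and its no-antigen arrays lay below the median probe set. Ahnak, a giant scaffold protein, had 11.10, 9.71 and 11.06 with persistent antigen and 8.04, 6.32 and 8.60 without. S100a10 lost its call without P1, P2, N1 or N3 (adjusted p up to 0.0902), Vim without P1, P3, N1 or N3 (adjusted p up to 0.0838) and Ahnak without P1, P3, N1 or N2 (adjusted p up to 0.141). Higher annexins and S100 genes numbered 5 without P1, 6 without P3 or N1 and 7 without N3.

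Adhesion and homing genes were mixed. Of 22 measured integrins and adhesion molecules 3 rose and 1 fell, 6 and 5 with the replicate block, with a median of −0.13. Itgb1, the beta-1 integrin chain, had 9.76, 9.08 and 8.91 with persistent antigen and 6.33, 5.29 and 5.80 without, and rose by 3.44 ± 0.49 (adjusted p = 0.00141). Cd47 had 11.31, 11.14 and 11.09 with persistent antigen and 9.85, 9.94 and 9.81 without, and rose by 1.31 ± 0.20 (adjusted p = 0.00179). Cd96, a receptor of the nectin family, had 6.51, 6.90 and 6.96 with persistent antigen and 9.20, 9.13 and 9.25 without, and fell by 2.40 ± 0.31 (adjusted p = 0.000749). Cd44, the usual surface mark of antigen experience, passed in neither fit at 10.03, 9.32 and 9.996 with persistent antigen and 9.66, 8.34 and 9.47 without. Of 22 chemokine receptors and homing genes 2 fell and 0 rose, and with the replicate block 3 fell and 5 rose. Ccr7, which brings T cells into lymph nodes, had 7.10, 7.25 and 6.79 with persistent antigen and 8.84, 8.18 and 8.71 without, and fell by 1.53 ± 0.25 (adjusted p = 0.00347). The other was St8sia6. S1pr1, the exit receptor, differed by 0.13 ± 0.43 and Foxo1, which controls several homing genes, by −0.26 ± 0.76, and neither passed in either fit. Cxcr6 and Cxcr4 rose with the block, by 1.48 ± 0.22 and 1.01 ± 0.27 (adjusted p = 8.12e-05 and 0.0127). Lower adhesion genes numbered 2 without N2. Higher homing genes numbered 1 without P3 or N1.

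In the BCL-2 family and among death genes 2 of 22 measured rose and 4 fell, 4 and 5 with the replicate block, with a median of −0.09. Bcl2, the survival factor, had 7.16, 6.56 and 7.23 with persistent antigen and 10.02, 9.34 and 9.74 without, and fell by 2.72 ± 0.30 (adjusted p = 0.000292). Bcl2l11, its pro-apoptotic antagonist BIM, had 9.22, 10.34 and 9.85 with persistent antigen and 11.53, 11.85 and 11.58 without, and fell by 1.85 ± 0.34 (adjusted p = 0.00666). A protective and a lethal member were both lower. Bmf, another BH3-only gene, and Birc3, an inhibitor of apoptosis, were the other 2. The inflammatory caspase genes Casp1 and Casp4 rose, by 1.35 ± 0.32 and 1.37 ± 0.29. Mcl1, Fas and Fasl passed in neither fit, at differences of −0.35 ± 0.32, 0.34 ± 0.22 and −0.59 ± 0.33. Bmf lost its call without P1, P2, P3, N1 or N3 (adjusted p up to 0.192), Birc3 without P1, P2, P3 or N2 (adjusted p up to 0.103) and Casp1 and Casp4 without P1, P3, N2 or N3 (adjusted p up to 0.15). Of 8 GIMAP genes, small GTPases of lymphocyte survival, 1 rose, Gimap7, with 9.04, 9.25 and 9.10 in persistent antigen arrays and 7.12, 6.99 and 7.47 in no-antigen arrays (difference 1.94 ± 0.25, adjusted p = 0.000735). Higher death genes numbered 0 without P1, P3, N2 or N3. Lower death genes numbered 2 without P1, P2 or P3.

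Of the 39 gene lists examined, that of mitosis had the highest median difference. Mitotic genes of the late cycle share promoter elements, the CCAAT box bound by NF-Y and the CHR element through which the MuvB complex represses them in resting cells, and genes of DNA replication are classical targets of E2F. To show these elements, the 250 bases before the gene start are given for 2 mitotic and 2 replication genes, from RefSeq (GRCm38.p6, the table's build). These had the largest increases among members that rose and had 1 window, where that window holds the elements. A chromosome whose sequence was not to be printed was left out of the choice. Capitals mark CCAAT and TTTGAA on either strand in the first pair (reverse ATTGG and TTCAAA), and TTTGGCGC, TTTCCCGC or TTTGGCGG on either strand in the second pair (reverse GCGCCAAA, GCGGGAAA, CCGCCAAA). The arrays were of B10.BR mice, whose own sequence was not used here. The windows of Ccnb2 (chr9:70421555-70421804, minus strand), Cdk1 (chr10:69352913-69353162, minus strand), Cdc6 (chr11:98907901-98908150, plus strand) and Pola1 (chrX:93632156-93632405, minus strand) read 5′ to 3′ as follows.
Ccnb2: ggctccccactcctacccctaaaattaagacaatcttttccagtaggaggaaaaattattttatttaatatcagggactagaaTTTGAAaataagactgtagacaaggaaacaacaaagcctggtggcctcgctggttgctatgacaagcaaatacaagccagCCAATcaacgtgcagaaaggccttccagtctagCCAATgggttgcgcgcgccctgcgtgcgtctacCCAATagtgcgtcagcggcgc
Cdk1: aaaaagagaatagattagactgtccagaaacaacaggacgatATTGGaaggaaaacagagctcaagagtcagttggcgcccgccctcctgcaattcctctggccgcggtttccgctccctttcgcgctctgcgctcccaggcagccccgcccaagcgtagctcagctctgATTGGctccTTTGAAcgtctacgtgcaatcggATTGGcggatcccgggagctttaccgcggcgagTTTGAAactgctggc
Cdc6: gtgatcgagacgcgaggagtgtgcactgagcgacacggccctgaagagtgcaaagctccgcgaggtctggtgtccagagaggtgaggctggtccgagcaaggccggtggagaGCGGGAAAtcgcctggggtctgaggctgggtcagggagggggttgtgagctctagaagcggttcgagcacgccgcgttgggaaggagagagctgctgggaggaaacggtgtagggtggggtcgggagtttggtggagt
Pola1: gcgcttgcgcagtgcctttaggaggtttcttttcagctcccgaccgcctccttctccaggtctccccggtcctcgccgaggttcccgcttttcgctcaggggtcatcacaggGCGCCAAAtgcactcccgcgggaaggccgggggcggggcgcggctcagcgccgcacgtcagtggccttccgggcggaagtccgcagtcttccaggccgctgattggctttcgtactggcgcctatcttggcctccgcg

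The Ccnb2 window holds CCAAT starting 87, 54 and 21 bases before the gene start, at equal spacing, and TTTGAA 167 bases before it. The Cdk1 window holds CCAAT on the other strand, as ATTGG, 208, 80 and 48 bases before the start, and TTTGAA 71 and 15 bases before it. In both replication genes the marked letters begin 138 bases before the start. Of 11791 measured genes with 1 window, 36.1% held CCAAT, 12.2% TTTGAA and 4.38% both. Of the 46 mitotic genes with 1 window 65.2% held CCAAT, 34.8% TTTGAA and 30.4% both, whether or not they were called. The E2F letters were in 22.2% of 27 replication genes with 1 window, against 2.68% of all genes with 1 window. A match of letters is a description and not a bound site.

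Of 59 measured mitosis, kinetochore and cytokinesis genes 44 rose and 0 fell, where 2.2% of all genes rose, 54 and 1 with the replicate block, and the median difference was 2.58. The cyclin gene Ccnb2 stood at 8.90, 9.05 and 8.72 with persistent antigen and 6.26, 4.66 and 5.34 without. Its kinase Cdk1 had 10.47, 9.94 and 9.87 with persistent antigen and 7.56, 6.22 and 6.85 without. Ccna2, the cyclin of S and G2 phase, had 10.88, 10.37 and 10.48 with persistent antigen and 7.94, 6.76 and 7.38 without. In all 3 the lowest persistent antigen array lay above the highest no-antigen array by at least 2 units. Birc5 (survivin), of the chromosomal passenger complex, had 9.31, 8.57 and 9.07 with persistent antigen and 5.93, 4.35 and 5.44 without. Mki67, the proliferation antigen Ki-67, had 11.46, 11.47 and 11.17 with persistent antigen and 9.13, 8.38 and 8.13 without, and rose by 2.82 ± 0.44 (adjusted p = 0.0024). The kinesin gene Kif11 had 9.18, 8.73 and 8.83 with persistent antigen and 6.75, 5.78 and 6.03 without. The mitotic kinase gene Aurka rose by 2.74 ± 0.47 (adjusted p = 0.00436), while Aurkb passed only with the block, by 2.81 ± 0.22 (adjusted p = 3.55e-08, and 0.0658 without), its persistent antigen arrays spreading over 9.26, 6.95 and 8.51. No-antigen arrays were not at the floor for most of these genes, with Mki67 at 8.13 or more and Top2a at 8.61, 6.56 and 7.78. Top2a lost its call without P1, P2, P3, N2 or N3 (adjusted p up to 0.152). Higher mitosis genes numbered 22 without P1, 27 without N2 and 29 without P3.

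Of 40 measured genes of the DNA replication machinery 23 rose and 0 fell, 38 and 0 with the replicate block, with a median of 1.67. Cdc6, which loads the MCM helicase, had 8.33, 7.14 and 7.79 with persistent antigen and 5.33, 3.52 and 4.22 without. Pola1, the catalytic subunit of polymerase alpha, had 9.32, 8.91 and 8.77 with persistent antigen and 7.12, 5.92 and 6.81 without. Pole, of the leading strand polymerase, had 7.01, 7.40 and 6.89 with persistent antigen and 5.08, 4.58 and 5.20 without, and rose by 2.15 ± 0.27 (adjusted p = 0.000735). The groups lay apart for each of the 3. Pcna, the sliding clamp, had 12.30, 11.08 and 11.71 with persistent antigen and 11.04, 9.55 and 9.98 without. Replicate 1 was highest in both groups, and Pcna rose only with the block, by 1.51 ± 0.20 (adjusted p = 2.42e-05, and 0.178 without). Of the helicase genes Mcm3 rose by 1.47 ± 0.35, while Mcm2, Mcm5 and Mcm6 rose only with the block, by 1.01 ± 0.18, 2.11 ± 0.26 and 1.91 ± 0.29. The origin gene Orc1 passed in neither fit (0.40 ± 0.19). Mcm3 lost its call without any 1 of the 6 arrays (adjusted p up to 0.161). Higher replication genes numbered 10 without P1, 12 without N3 and 13 without P3 or N2.

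The genes that control entry into the cycle were divided. Of 19 measured E2F and pocket protein genes 3 rose and 0 fell, 8 and 1 with the replicate block, with a median of 0.41. E2f7, an atypical repressor member, had 8.43, 6.57 and 8.15 with persistent antigen and 4.71, 4.70 and 4.14 without. E2f8, the other atypical member, had 10.57, 9.54 and 10.35 with persistent antigen and 7.89, 6.70 and 7.01 without. E2f2, an activator, had 8.75, 8.36 and 8.99 with persistent antigen and 6.17, 4.96 and 6.55 without. E2f1, Rbl1, Rbl2 and Foxm1 passed in neither fit, with differences of 0.40 ± 0.30, 0.43 ± 0.53, 0.15 ± 0.55 and 0.21 ± 0.19. Among 19 G1 cyclins, kinases and inhibitors 3 rose and 2 fell, 10 and 2 with the replicate block, with a median of 0.69. Ccne1, the cyclin E of the G1 to S transition, had 9.61, 9.19 and 9.43 with persistent antigen and 7.31, 6.49 and 7.66 without, and rose by 2.25 ± 0.37 (adjusted p = 0.00347). Cdk6 had 8.20, 8.21 and 8.50 with persistent antigen and 6.26, 6.001 and 6.69 without, and rose by 1.99 ± 0.37 (adjusted p = 0.00667). Its inhibitor Cdkn2c (p18) rose as well, by 1.80 ± 0.44. Ccnd2, the cyclin D of early G1, had 9.12, 9.09 and 9.003 with persistent antigen and 10.36, 10.25 and 10.23 without, and fell by 1.21 ± 0.21 (adjusted p = 0.00453). Btg1, an antiproliferative gene of resting lymphocytes, had 9.89, 10.24 and 10.32 with persistent antigen and 11.50, 11.79 and 11.48 without. The inhibitor genes Cdkn1a and Cdkn1b passed in neither fit (0.18 ± 0.22 and −0.23 ± 0.32). E2f7 lost its call without P1, P3 or N3 (adjusted p up to 0.0698) and Cdkn2c and Btg1 without any 1 of the 6 arrays (adjusted p up to 0.181). Higher E2F and pocket protein genes numbered 5 without P2. The median over E2F and pocket protein genes was 0.85 without P2. Lower G1 genes numbered 1 without any 1 of the 6 arrays. The median over G1 genes was 0.40 without N2.

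**Figure D3:**
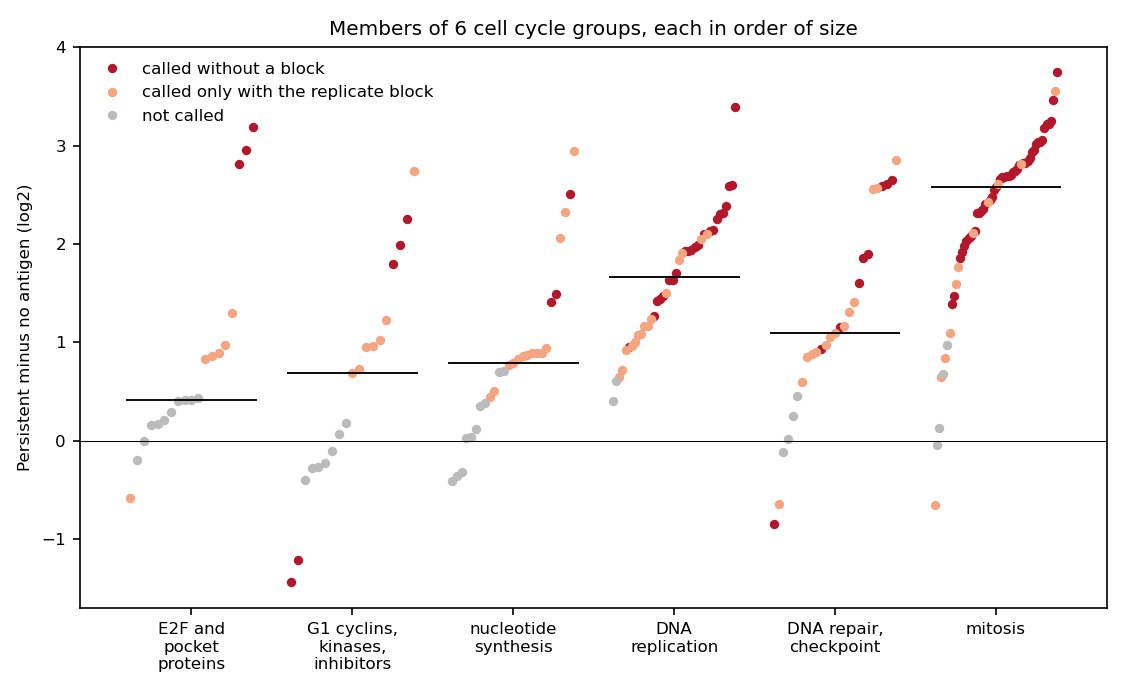
Difference between persistent and no antigen (log2, y axis) for each measured member of 6 cell cycle groups, in order of size within a group. Dark points were called without a block, light points only with it and grey points in neither fit, and black lines are medians. The medians are 2.58 for mitosis, 1.67 for DNA replication, 1.09 for repair, 0.79 for nucleotide synthesis, 0.69 for G1 genes and 0.41 for E2F and pocket proteins.

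DNA repair and checkpoint genes and enzymes of nucleotide synthesis followed. Of 27 repair and checkpoint genes 9 rose and 1 fell, 21 and 2 with the replicate block, with a median of 1.09. Clspn, which links stalled forks to the checkpoint kinase CHK1, had 8.20, 8.26 and 8.35 with persistent antigen and 5.83, 5.45 and 5.56 without, and rose by 2.66 ± 0.31 (adjusted p = 0.000505). Exo1 rose by 1.90 ± 0.32 (adjusted p = 0.00403) and Brca1 by 2.59 ± 0.51 (adjusted p = 0.00997). Chek1, the gene of CHK1, had 9.45, 7.67 and 9.16 with persistent antigen and 7.16, 4.96 and 6.43 without and passed only with the block (adjusted p = 2.28e-06, and 0.116 without). Of 27 nucleotide synthesis enzymes 3 rose and 0 fell, 17 and 0 with the replicate block, with a median of 0.79. Tk1, the thymidine kinase of dividing cells, had 8.13, 7.21 and 8.05 with persistent antigen and 5.81, 4.90 and 5.14 without, and rose by 2.51 ± 0.38 (adjusted p = 0.00196). Rrm2, the regulated subunit of ribonucleotide reductase, had 11.96, 10.65 and 11.81 with persistent antigen and 9.61, 6.86 and 9.11 without and rose only with the block, by 2.95 ± 0.37 (adjusted p = 8.71e-06, and 0.0931 without). The purine pathway genes Ppat and Gart and the pyrimidine gene Cad passed in neither fit. Brca1 lost its call without P1 or N2 (adjusted p up to 0.0622). Higher repair genes numbered 3 without P1, 4 without N2 and 5 without N3. Lower repair genes numbered 0 without P1, P2, P3, N1 or N2. Higher nucleotide synthesis genes numbered 5 without P2. Among the 3 that rose, the GMP synthetase gene Gmps lost its call without P1, P3, N2 or N3 (adjusted p up to 0.117).

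Chromatin enzymes held 6 increases and 0 decreases among 27 measured genes, 10 and 6 with the replicate block, with a median of 0.17. Ezh2, the methyltransferase of Polycomb complex 2, had 10.01, 8.89 and 9.30 with persistent antigen and 7.79, 6.77 and 7.22 without, and rose by 2.14 ± 0.43 (adjusted p = 0.0121). Dnmt1, which copies DNA methylation at replication, had 9.93, 9.63 and 9.88 with persistent antigen and 8.65, 8.22 and 8.80 without. Dnmt3a, the methyltransferase for new sites, fell only with the block, by 0.92 ± 0.20 (adjusted p = 0.00296), at 7.37, 5.99 and 7.65 with persistent antigen and 8.35, 7.19 and 8.24 without. Asf1b, a histone chaperone, rose by 2.54 ± 0.46 (adjusted p = 0.00653) and Lmnb1, of the nuclear lamina, by 1.62 ± 0.23 (adjusted p = 0.00145). Ezh2 lost its call without P1 or N2 (adjusted p up to 0.0771) and Dnmt1 without P1, P3, N1 or N2 (adjusted p up to 0.106). Higher chromatin genes numbered 2 without P1 and 3 without N2. Lower chromatin genes numbered 1 without P2 or N2.

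Of 12 measured genes of MYC, MAX and the MXD proteins 1 rose and 0 fell, and with the replicate block 1 rose and 4 fell, with a median of −0.07. Myc had 4.52, 4.62 and 4.08 with persistent antigen and 5.43, 6.38 and 4.82 without, and fell only with the block, by 1.14 ± 0.20 (adjusted p = 0.000338, and 0.0889 without). Mxd3, a partner of MAX that is known from cells in S phase, had 6.66, 6.64 and 6.90 with persistent antigen and 4.34, 5.17 and 4.69 without, and rose by 2.00 ± 0.25 (adjusted p = 0.000735). Mxd4, another MXD member, fell with the block by 1.38 ± 0.22 (adjusted p = 0.000119). Ribosome biogenesis, a classical target of MYC, had 0 of 35 measured genes called in limma without a block (3 at an unadjusted p under 0.05), and with it 2 rose and 4 fell, with a median of 0.08. Of all genes 9.93% rose and 6.79% fell with the block, and without it 2370 of 18193 had an unadjusted p under 0.05 in limma. Nop56, Dkc1, Fbl and Npm1 passed in neither fit, with differences of 0.12 ± 0.29, 0.25 ± 0.35, 0.26 ± 0.57 and −0.24 ± 0.31. Cytosolic ribosomal protein genes had 0 of 30 called in limma without a block (6 at an unadjusted p under 0.05) and 2 higher and 11 lower with it, with a median of −0.40. Lower MYC, MAX and MXD genes numbered 1 without P2 or N3.

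Most metabolic genes that passed did so only with the replicate block. Of 26 glycolysis and pyruvate genes 3 rose and 1 fell, 13 and 3 with the block, with a median of 0.58. Tpi1, a triose isomerase, had 8.70, 7.79 and 8.51 with persistent antigen and 6.34, 4.89 and 6.37 without. Pfkp, of the rate-controlling phosphofructokinase, had 9.80, 9.59 and 9.22 with persistent antigen and 8.19, 8.21 and 8.03 without. Of the pyruvate dehydrogenase kinase genes, Pdk3 rose by 1.27 ± 0.32 and Pdk1 fell by 0.94 ± 0.22. Txnip, which restrains glucose uptake, fell with the block by 1.59 ± 0.15 (adjusted p = 3.12e-07, and 0.0571 without). The glucose transporter gene Slc2a1 passed in neither fit (0.34 ± 0.42). Of 37 genes of the respiratory chain and ATP synthase 1 rose and 0 fell, 30 and 0 with the block, with a median of 0.76. That one was Cycs, cytochrome c, with 10.58, 10.65 and 10.86 in persistent antigen arrays and 9.52, 9.23 and 9.99 in no-antigen arrays. Of 35 mitochondrial ribosomal protein genes 1 rose, Mrps22, and 22 rose with the block, with a median of 0.62, and 0 fell in either fit. Pdk3 and Mrps22 lost their calls without P1, P3, N1, N2 or N3 (adjusted p up to 0.215), Pdk1 without P1, P2, P3, N2 or N3 (adjusted p up to 0.117) and Cycs without P1, P2, P3, N1 or N2 (adjusted p up to 0.16). Lower glycolysis genes numbered 0 without P1, P2, P3, N2 or N3. The median over glycolysis genes was 0.30 without P1 or N2. Higher respiratory chain genes numbered 0 without P1, P3, N1 or N2. Higher mitochondrial ribosomal genes numbered 0 without P1, P3, N1, N2 or N3 and 2 without P2. The median over mitochondrial ribosomal genes was 0.38 without N2.

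Of 32 measured genes of sterol and fatty acid synthesis and export 2 fell and 0 rose, and with the replicate block 3 fell and 12 rose, with a median of 0.41. The 2 that fell were Abca1 and Mylip, the ligase that degrades the LDL receptor, with 7.95, 8.30 and 8.05 in persistent antigen arrays and 9.50, 9.44 and 9.49 in no-antigen arrays. Both are known targets of the sterol sensor LXR, as is Abcg1, which fell with the block by 0.69 ± 0.16 (adjusted p = 0.00348). The synthesis genes Idi1, Cyp51 and Sqle rose with the block by 1.88 ± 0.21, 1.53 ± 0.19 and 1.27 ± 0.19 (adjusted p = 2.34e-06, 8.19e-06 and 7.09e-05). Fasn and Acly, of fatty acid synthesis, passed in neither fit. Higher sterol and fatty acid genes numbered 3 without P2.

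Of 29 amino acid transporters and one-carbon enzymes 2 rose and 0 fell, 9 and 2 with the replicate block, with a median of 0.34. Psat1 of serine synthesis had 11.27, 11.01 and 11.26 with persistent antigen and 10.18, 10.07 and 10.29 without, and mitochondrial Mthfd2 had 9.26, 9.11 and 9.12 with persistent antigen and 8.16, 8.12 and 8.20 without. The transporter genes Slc7a5 and Slc1a5 passed in neither fit, and Slc3a2, the partner of Slc7a5, fell with the block by 0.66 ± 0.19 (adjusted p = 0.0197). Of 42 proteasome genes 3 rose and 0 fell, 25 and 1 with the block, with a median of 0.68. Psmc1, an ATPase of the regulatory particle, had 8.85, 8.32 and 8.38 with persistent antigen and 7.66, 7.03 and 7.37 without. Of 30 genes of endoplasmic reticulum folding and stress 1 rose, Atf6, and 13 rose and 1 fell with the block, with a median of 0.45. Of 22 translation initiation factors 1 fell and 0 rose, and with the block 3 fell and 6 rose. The one that fell was Pdcd4, an inhibitor of the helicase eIF4A, with 7.65, 7.19 and 8.21 in persistent antigen arrays and 9.18, 9.17 and 9.32 in no-antigen arrays. Of 18 chaperonin and chaperone genes 0 passed in limma without a block (1 at an unadjusted p under 0.05) and 5 rose with it. Psat1 and Mthfd2 lost their calls without any 1 of the 6 arrays (adjusted p up to 0.177), Psmc1 without P1, P3, N2 or N3 (adjusted p up to 0.158), Atf6 without P1, P2, N1 or N2 (adjusted p up to 0.114) and Pdcd4 without P1, P2, N1, N2 or N3 (adjusted p up to 0.155). Higher amino acid and one-carbon genes numbered 0 without any 1 of the 6 arrays. The median over amino acid and one-carbon genes was 0.20 without P1, 0.21 without N2 and 0.56 without P2. Higher proteasome genes numbered 0 without P1, P3, N2 or N3 and 1 without N1. Higher endoplasmic reticulum genes numbered 0 without P1, P2, N1 or N2. The median over endoplasmic reticulum genes was 0.27 without P1 or N2.

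Type I interferon-stimulated genes had 1 of 36 measured members higher and 0 lower, 10 and 3 with the replicate block, with a median of 0.26. Ifi204, which senses DNA, rose, with all 6 arrays below the median probe set, at 4.33, 3.20 and 3.85 in persistent antigen arrays and 2.54, 2.39 and 2.59 in no-antigen arrays. Rsad2 (viperin) and Mx1 rose only with the block, by 1.78 ± 0.34 and 1.54 ± 0.33 (adjusted p = 0.000766 and 0.00217). Irf7, Ifit3 and Rtp4 passed in neither fit, and Irf1 fell with the block by 0.52 ± 0.15 (adjusted p = 0.0207).

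**Figure D4:**
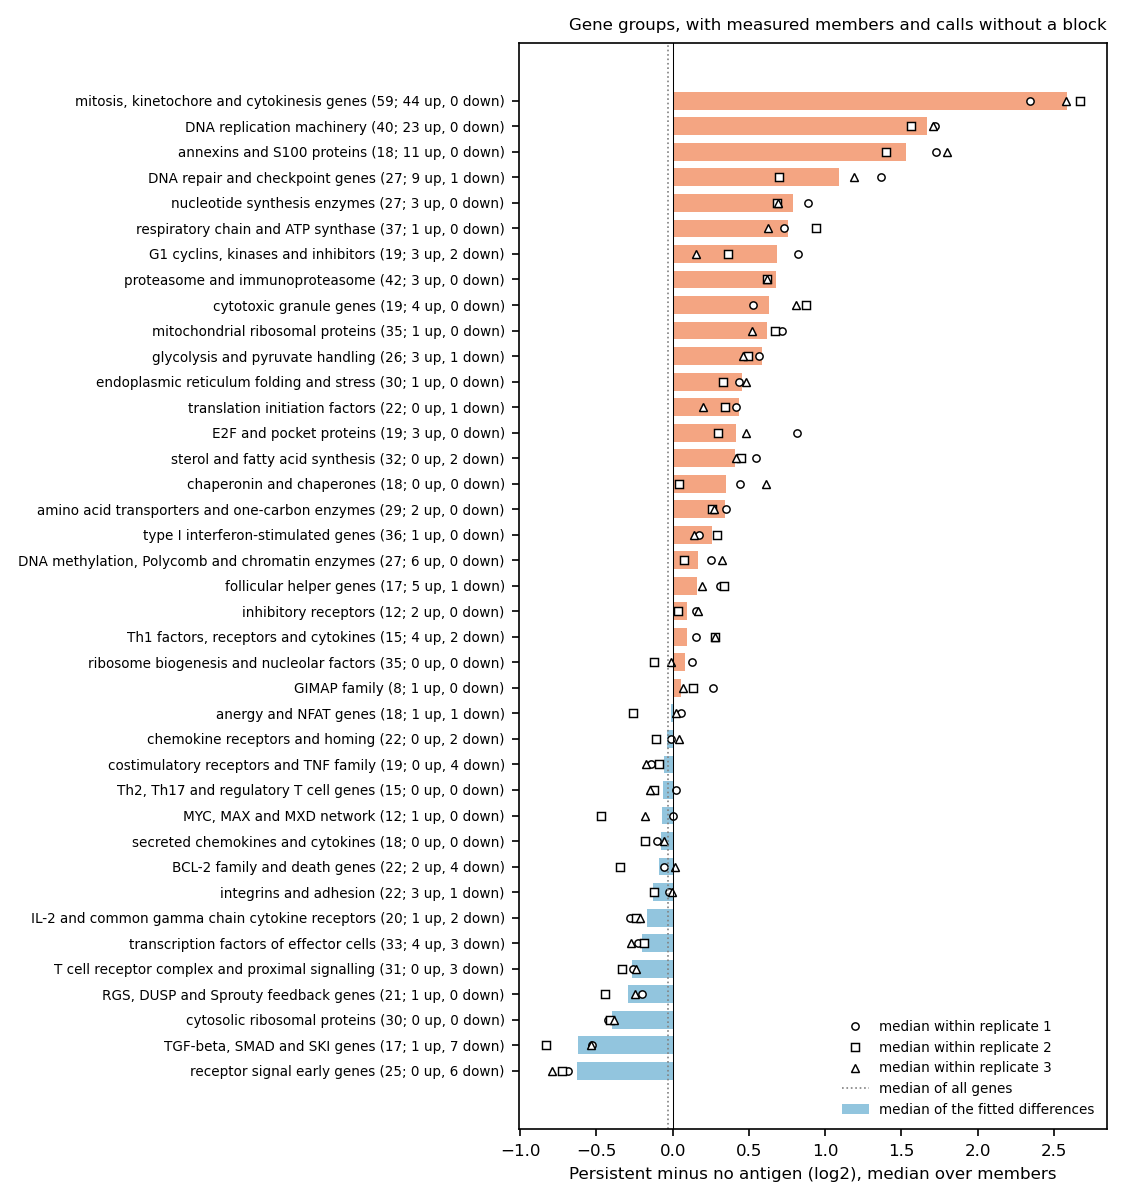
Median difference between persistent and no antigen (log2, x axis) over the measured members of 39 gene groups, with the number measured and the calls without a block in brackets. Bars are medians of the fitted differences, open symbols the medians within replicates 1 to 3, and the dotted line the median of all genes (−0.03). Medians run from −0.63 for early receptor-signal genes to 2.58 for mitosis.

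Most genes that passed lay outside these lists, 462 of 649. Among the named decreases outside the lists Lad1 (ladinin 1) had 4.50, 5.12 and 5.04 with persistent antigen and 8.19, 7.76 and 7.91 without, and fell by 3.07 ± 0.33 (adjusted p = 0.00024). Tdrp had 5.73, 5.32 and 5.67 with persistent antigen and 9.11, 8.04 and 8.82 without. Lypd6b fell by 2.54 ± 0.34 (adjusted p = 0.000802). Among increases Plek (pleckstrin), a substrate of protein kinase C in blood cells, had 7.84, 6.31 and 7.83 with persistent antigen and 3.86, 3.56 and 4.19 without. P2rx7, an ATP-gated channel, had 7.10, 7.74 and 7.45 with persistent antigen and 5.23, 5.99 and 5.71 without, and rose by 1.79 ± 0.27 (adjusted p = 0.00191).

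Whether the same genes set persistent apart from transient antigen was tested against the arrays with transient antigen and PBS, where doxycycline stopped at the day of transfer and the recipients had the same transgenes. This contrast shares its persistent antigen arrays with the comparison above. In it 169 genes passed (0.929%), 110 higher (0.605%) and 59 lower (0.324%). With the replicate block 2079 passed (11.4%), 1089 higher (5.99%) and 990 lower (5.44%). Leaving out persistent replicate 1 or 3 gave 37 and 38. Il21 had 3.98, 3.82 and 4.39 without antigen, 4.50, 4.13 and 3.59 with transient and 9.20, 7.44 and 9.34 with persistent antigen, and persistent exceeded transient by 4.59 ± 0.60 (adjusted p = 0.00312). Gzmb had 4.19, 4.04 and 5.67 without antigen, 4.51, 4.14 and 4.71 with transient and 9.64, 8.05 and 10.07 with persistent antigen, and persistent exceeded transient by 4.80 ± 0.66 (adjusted p = 0.00417). For these 2 genes the transient antigen arrays lay among or near the no-antigen arrays. Emp1, Plek and Lgals3 were of the same kind, with differences from transient antigen of 3.83 ± 0.40, 3.66 ± 0.45 and 3.31 ± 0.31. Tox2 and Prdm1 also were higher than with transient antigen, by 2.92 ± 0.45 and 2.62 ± 0.46 (adjusted p = 0.00733 and 0.016). On the low side Tdrp, St8sia6, Cd96, Bach2 and Ccr7 differed by −3.03 ± 0.33, −2.82 ± 0.28, −2.19 ± 0.31, −1.85 ± 0.22 and −1.41 ± 0.25, with adjusted p up to 0.0163.

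Other genes passed against no antigen and not against transient antigen. Cxcr3 had 5.76, 5.28 and 7.09 without antigen, 10.52, 9.98 and 10.77 with transient and 10.80, 10.57 and 10.92 with persistent antigen, and persistent differed from transient by 0.34 ± 0.47 (adjusted p = 0.876). Itgb1 differed from transient antigen by 0.07 ± 0.49, Gimap7 by −0.10 ± 0.25, P2rx7 by −0.08 ± 0.27, Nrp1 by 0.42 ± 0.51 and Tnfrsf9 by 0.03 ± 0.23. None of these 6 passed with the block either, and the standard errors show how large a difference could go unseen. Of the gene groups, persistent antigen exceeded transient antigen in 13 of 40 replication genes and 9 of 59 mitosis genes, and with the replicate block in 37 and 55 of them. Over all genes the share that was higher was 0.605% without a block and 5.99% with it. The median of transient minus no antigen was 0.07 over replication genes and 0.73 over mitosis genes. Over annexins and S100 genes it was 1.06, against 1.53 for persistent minus no antigen. Over early receptor-signal genes it was −0.50 against −0.63. None of the early genes differed between the 2 antigen regimes without a block, and 8 of 25 were lower with it, against 5.44% of all genes. Il2 ran against the rest of the order, at 4.72, 4.30 and 4.20 without antigen, 5.11, 5.71 and 5.37 with transient and 4.27, 4.32 and 4.51 with persistent antigen, and was lower than with transient antigen only with the block (adjusted p = 0.00218, and 0.0721 without).

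**Figure D5:**
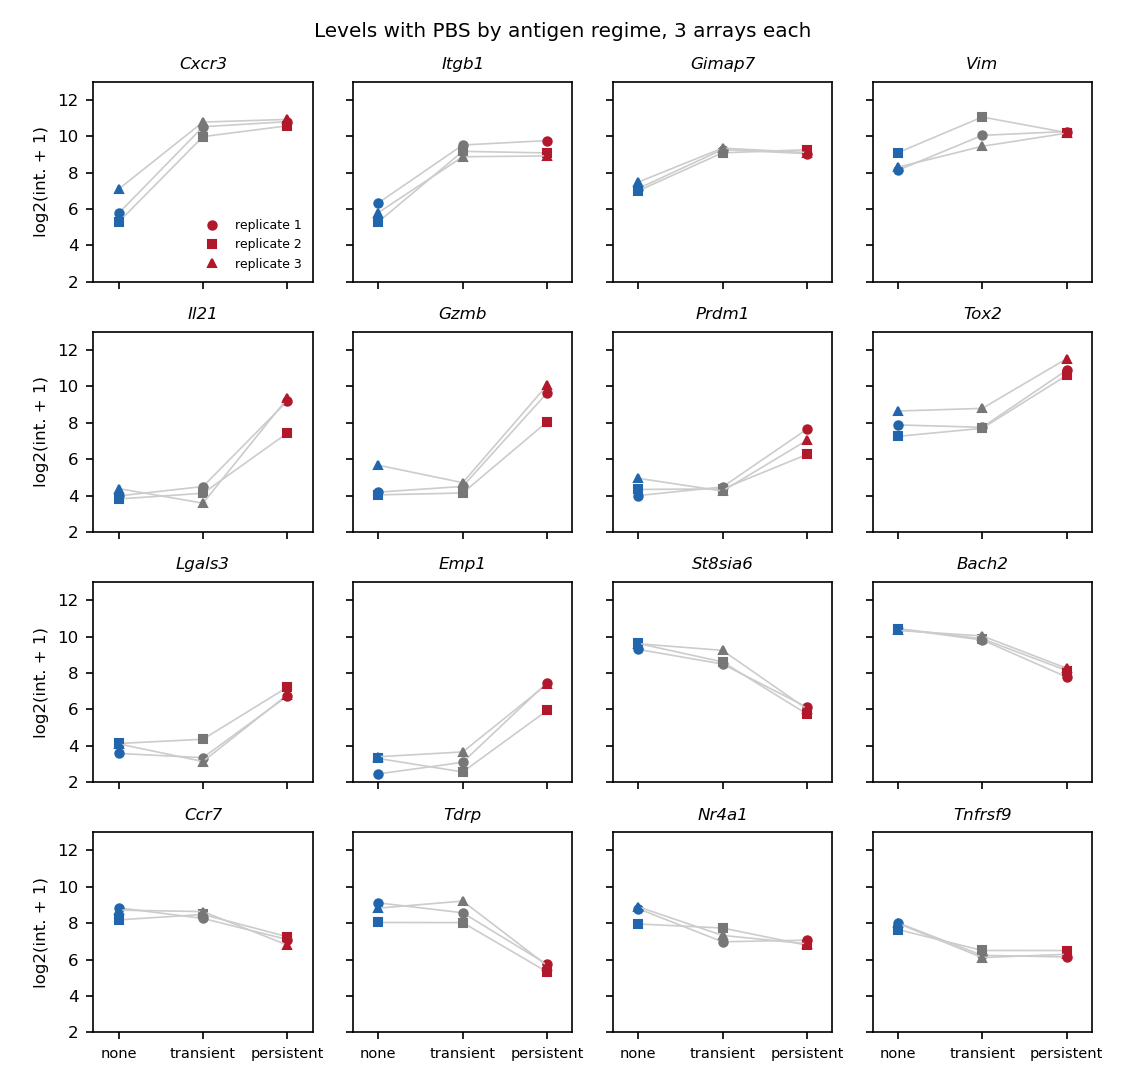
Log2(intensity + 1) of 16 genes without antigen, with transient and with persistent antigen, all with PBS, 3 arrays each; lines join arrays of the same replicate number. The genes were chosen after their values were seen. Cxcr3, Itgb1, Gimap7, Vim, Nr4a1 and Tnfrsf9 stand at similar levels under both antigen regimes, while Il21, Gzmb, Prdm1, Tox2, Lgals3, Emp1, St8sia6, Bach2, Ccr7 and Tdrp differ mainly with persistent antigen.

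Whether activated dendritic cells altered the response was tested as the difference between the effect of persistent antigen with anti-CD40 and that with PBS, over arrays that the 2 effects do not share. In limma 0 genes passed for this difference, with 157 at an unadjusted p under 0.05, and with the replicate block also 0, with 667. Both counts are below a share of 0.05 of all 18193 genes, so neither is an excess over what no difference would give. With anti-CD40 persistent antigen changed 432 genes (2.37%), of which 298 were higher (1.64%) and 134 lower (0.737%). Across all 18193 genes the effects with anti-CD40 and with PBS correlated at r = 0.856, as a description over genes that are not independent. Of the 649 genes that passed with PBS, 647 differed in the same direction with anti-CD40. The median effect with anti-CD40 was 2.32 over the 59 mitosis genes, against 2.58 with PBS. The smallest p of the difference was that of Dock3, with a change of −0.90 ± 0.22 in its effect (unadjusted p = 0.00127, adjusted p = 1). No-antigen arrays with anti-CD40 numbered 2, which limits this test, and 0 calls do not show that the 2 effects are equal.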

How the data were processed

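RNA of sorted AND T cells was amplified in 2 rounds per the labels' protocols and hybridised to Affymetrix mouse arrays, 1 colour, 16 arrays in all. Per the submitters' processing notes the authors obtained the deposited probe set intensities by RMA, with version not given in the sources used here. RMA reports log2 values, while the deposited values were read as linear intensities from their range. Each was turned into log2(intensity + 1), and the main fit added no scaling. The platform annotation held 35890 of the probe sets, of which 34945 had 1 symbol and 932 several; 9211 probe sets were not found in it and stayed unnamed, and 64 were controls. The probe set with the highest mean over the 16 arrays stood for each of 18193 genes, so other probe sets of a gene can differ, and among 381 named genes 66 had another probe set of opposite sign (Ccnd3 and Gimap6 one that passed).

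Differences were fitted with limma 3.58.1 in R 4.3.3 (lmFit and eBayes with an intensity trend) over 6 group means of all 16 arrays, so that groups share 1 estimate of the spread, with Benjamini-Hochberg adjustment over all genes and a threshold of 0.05. The scripts were tested on simulated data. Tables were made with the data.table package (1.17.8), Python 3.11.15 and pandas 2.3.3, and figures with matplotlib 3.10.9. Same-numbered arrays of different groups deviated together from their group means in all 36 pairs (r = 0.48 to 0.81, median 0.68), with a median of −0.53 over 70 other pairs. Deviations sum to 0 within a group, so the negative value follows from the positive ones and is no separate evidence. The pairs reuse the same 16 arrays and are not independent. The replicate number was therefore also used as a block, a pairing seen in the data, since no label states one. Whether it reflects shared processing was not tested. The number of arrays limits the precision.

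Genes named are the 12 largest increases and decreases among genes that passed without overlap and whose higher group mean lay above the median probe set, up to 5 members per list that passed (also with the block where fewer than 3 did), members marked as central to a list, and the largest of the 2 contrasts with other groups. The first group leaves out clone names, antigen receptor segments and 5 sex-linked genes. The members, lists and tests were chosen with earlier results of these data known. Other settings tried were a replicate block, a block for array runs, only the 6 arrays, array weights, cyclic loess, a larger constant, means of probe sets, no trend, no dim genes and leaving out arrays. Promoter sequences are those of RefSeq (GRCm38.p6), matched by symbol.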

Additional observations from a re-analysis of the deposited data

How the results depend on the processing

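The main fit called 649 genes for persistent against no antigen (401 higher, 248 lower) and 169 for persistent against transient antigen. With the replicate block, which follows the pairing, these were 3042 (1807 and 1235) and 2079. With a block for array runs they were 2833 (1659 and 1174) and 2405. Array weights gave 2352 (1331 and 1021) and 3934. Only the 6 arrays compared gave 373 (250 and 123), and with the replicate block 2234 (1391 and 843). Cyclic loess scaling gave 958 (595 and 363) and 359. With the replicate block and without replicate 1, 2 or 3 the counts were 1675, 3075 and 2130 (higher 1013, 1939 and 1297; lower 662, 1136 and 833), and 889, 2152 and 963 against transient antigen. Only replicates 1 and 3, with mainly male and with female cells, gave 1355 (908 and 447) and 583. Cyclic loess with the replicate block, chosen after seeing the data, gave 3248 (1839 and 1409) and 2277. Leaving out 1 array gave 306 to 549 (184 to 379 and 122 to 193), and 37 to 152 against transient antigen. Other settings stayed within 1.5 times of the main count. The difference of the effect between anti-CD40 and PBS had 0 calls in limma under each setting run. Of 150 called named genes 83 kept their call in every setting in which they were tested. The setting without dim genes did not test all of them. Of the 150, 60 lost the call in at least 1 fit without an array and without a block, and 0 changed direction. With the replicate block, leaving out replicate 1 or replicate 2 ended the call of 1 named gene each. No named gene lost its call with the block and without replicate 3. The causes of the differences between settings were not tested. Signal near the median probe set limits folds.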
